A study of Mus musculus with 8 samples.

Results

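Regulatory T cells are the lineage that keeps other T cells in check, and 7 genes that mark them or that they use were examined here for binding of Bcl11b in mouse thymocytes. Foxp3 encodes the lineage-defining transcription factor, Il2ra the alpha chain of the interleukin-2 receptor (CD25), Ctla4 an inhibitory receptor for CD80 and CD86, Tnfrsf18, Tnfrsf4 and Tnfrsf9 the TNF receptor family members GITR, OX40 and 4-1BB, and Nrp1 the co-receptor neuropilin-1. Members were the intervals of the deposited normalized table whose nearest protein-coding gene body was one of these genes and lay within 100 kb of the interval's midpoint. That gave 70 of 63098 intervals (0.111%), each 201 bp long, at 5 of the 7 genes.

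Chromatin from freshly isolated thymocytes was precipitated with the rabbit anti-Bcl11b antibody A300-385A and sequenced. The 6 ChIP libraries comprised 3 of Bcl11b+/+ (wild type) and 3 of Bcl11b+/N440K thymocytes, which carry 1 Bcl11b allele coding for a protein with the N440K exchange next to 1 unchanged allele. The 2 input libraries, both of Bcl11b+/+ thymocytes, were not analysed here, so no level is corrected for input. No label gives an age, strain or sex, or ties a replicate to an animal, and p-values therefore measure only the spread between these libraries. Reads in the tested intervals numbered 1609762 to 2400250 per library, and levels are given in CPM, counts scaled by the authors to equal library sizes.

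Bcl11b is a zinc finger transcription factor needed for T lineage commitment, and its loss in regulatory T cells is known to disturb their suppressive function. In the thymus, developing regulatory T cells acquire CD25 and GITR after strong T cell receptor signals and then switch on Foxp3 in response to interleukin-2. The TNF receptor family members supply co-stimulation along that path, and CTLA-4 and neuropilin-1 are part of the mature cell's surface. Regulatory T cells and their precursors are a small minority of thymocytes. The libraries are from whole thymocytes, so a change in the share of cells that bind Bcl11b at a site and a change in binding per cell cannot be told apart. ChIP reads carry no expression markers, and the labelled cell type was not checked against them.

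The promoters of Il2ra, Ctla4 and Tnfrsf18 each held 1 tested interval. The bases of those intervals that lie before the annotated gene start are shown because they are the promoter sequence over which fragments were counted. They were read 5′ to 3′ on the plus strand from RefSeq sequence of GRCm38.p6, whose coordinates are those of mm10. The stretches are chr2:11642638-11642791 for Il2ra, chr1:60908876-60909024 for Ctla4 and chr4:156026085-156026285 for Tnfrsf18. Capitals mark matches to AGGAAG on either strand, a core of ETS factor sites. The Tnfrsf18 stretch has no match to that word.
Il2ra promoter: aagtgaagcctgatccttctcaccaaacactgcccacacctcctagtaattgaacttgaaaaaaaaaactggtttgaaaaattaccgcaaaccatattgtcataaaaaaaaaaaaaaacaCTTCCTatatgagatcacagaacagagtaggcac
Ctla4 promoter: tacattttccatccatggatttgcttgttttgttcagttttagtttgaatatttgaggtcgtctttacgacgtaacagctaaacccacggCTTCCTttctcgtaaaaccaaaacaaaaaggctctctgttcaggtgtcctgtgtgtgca
Tnfrsf18 promoter: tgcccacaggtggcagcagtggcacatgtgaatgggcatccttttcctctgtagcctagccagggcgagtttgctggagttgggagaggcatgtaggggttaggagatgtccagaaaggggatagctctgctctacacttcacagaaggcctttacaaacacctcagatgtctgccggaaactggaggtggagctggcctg
Words of 6 bases were searched on both strands as exact matches. Other forms of the sites of these factors were not looked for, so a missing word does not show that a site is missing. Besides AGGAAG, they were TGACCA, which is the word reported for BCL11 proteins. For RUNX factors, central to T cell and Foxp3 regulation, the word searched was TGTGGT. Sites of GATA factors such as Gata3 were represented by AGATAA. For the TCF and LEF factors of the thymus the word was CTTTGA. Forkhead factors, the family to which Foxp3 itself belongs, were represented by TGTTTA. The Il2ra and Ctla4 stretches each held 1 match to AGGAAG, beginning 34 and 59 bases before the gene start, and no match to the other words. AGGAAG occurred at the same positions in 19.9% and 19.4% of 27025 promoters. The Tnfrsf18 stretch held none of the 6 words. TGACCA was found in 7.04% to 9.52% of promoters over the same positions. G and C made up 35.7% of the Il2ra, 40.3% of the Ctla4 and 55.2% of the Tnfrsf18 stretch.

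**Figure D1:**
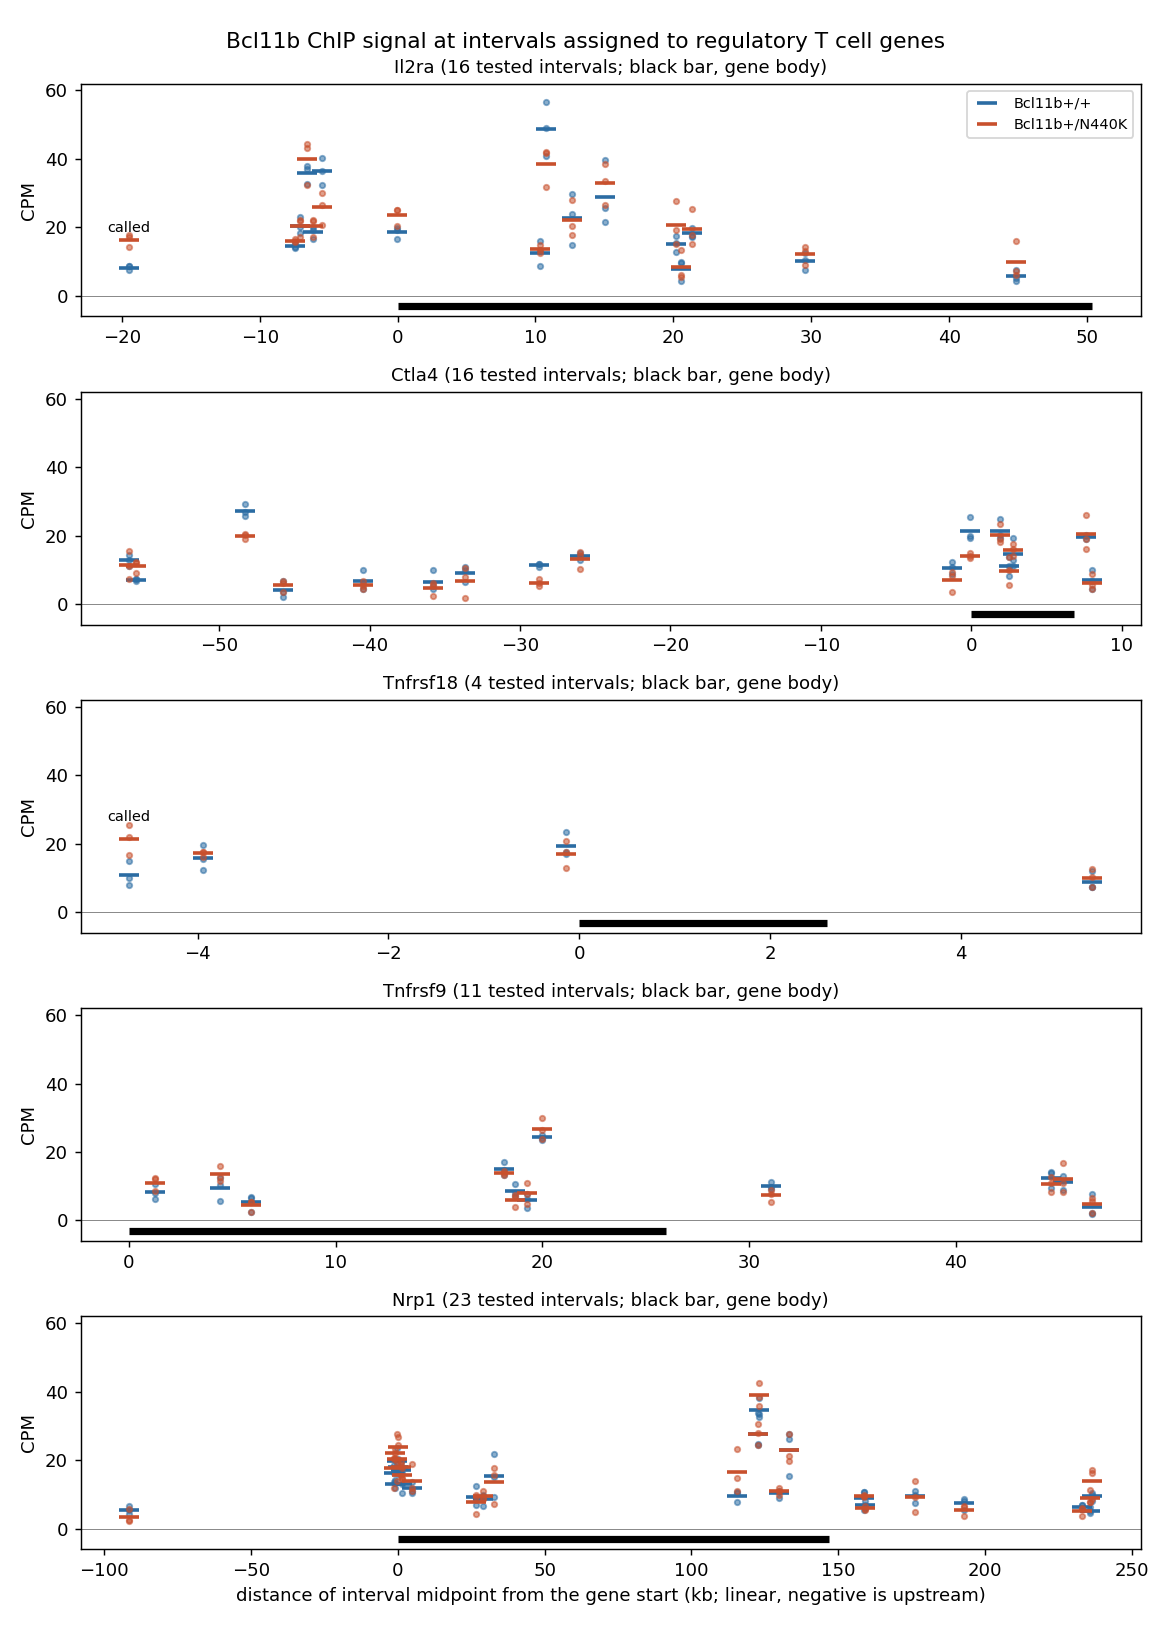
Bcl11b ChIP signal in CPM (y axis, linear) at every tested interval of the 5 genes against the distance of its midpoint from the gene start in kb (x axis). Points are the 3 libraries of each genotype, dashes their means and black bars the gene bodies. The highest Il2ra interval lies inside the gene at 10.73 kb, and the 2 called intervals lie upstream of Il2ra and Tnfrsf18.

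Foxp3 held no interval. Its body (chromosome X, 7579676 to 7595243) lay in a stretch of 30.3 kb without an interval even in the unfiltered count table. The nearest one upstream was 5.1 kb away and only 331 bp from Ppp1r3f, to which it was assigned, and the nearest downstream was 9.8 kb away in Ccdc22. The former had 3.10, 8.23 and 7.30 CPM in the wild type and 6.09, 5.49 and 7.81 CPM in the N440K libraries. These ranges overlapped, and its edgeR adjusted p was 0.999. That no interval was called does not show that Bcl11b is absent from Foxp3 in the few cells that express it.

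Tnfrsf4 (chromosome 4, 156013595 to 156016613) held 1 interval, 0.19 kb past its start, with 2 to 9 reads per library. It did not reach the normalized table and was not tested. A further 21 intervals of the unfiltered table, 19 near Nrp1 and 1 each near Ctla4 and Tnfrsf9, were left out by the same filter, with 1 to 18 reads per library in these 22 intervals together. Nrp1 thus lost 45.2% of its 42 intervals, against 32.7% of all intervals.

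The 70 tested intervals were of ordinary strength. Their median signal was 12.6 CPM, and that of all tested intervals was 11.8 CPM. Above the 90th percentile of all intervals lay 4 (5.71%), 3 at Il2ra and 1 at Nrp1. Inside a gene body lay 30 of them (42.9%, against 61.6% of all tested intervals), while 26 lay upstream and 14 downstream.

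Signal per tested interval, which compares genes over equal lengths, was highest at Il2ra. The averages leave out the weak intervals that were filtered, 19 of 42 at Nrp1, 1 each at Ctla4 and Tnfrsf9 and 0 at Il2ra and Tnfrsf18. The order of the genes below Il2ra therefore holds for tested intervals only. Its 16 intervals averaged 20.2 ± 1.94 CPM in wild type against 21.3 ± 2.81 CPM in N440K thymocytes (SD, n = 3). Tnfrsf18 followed with 13.8 ± 0.932 and 16.5 ± 0.756 CPM over 4 intervals, and Nrp1 with 13.4 ± 0.495 and 14.8 ± 1.09 CPM over 23. Ctla4 had 12.8 ± 1.46 and 11.1 ± 1.16 CPM over 16 intervals, and Tnfrsf9 had 10.4 ± 0.356 and 10.8 ± 0.423 CPM over 11. The Il2ra libraries lay above those of every other gene in both genotypes. In wild type the libraries of Tnfrsf18, Nrp1 and Ctla4 overlapped, and in N440K those of Ctla4 and Tnfrsf9 did.

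Between the genotypes, 2 of the 70 intervals (2.86%) were called, both higher in N440K, 1 upstream of Il2ra and 1 upstream of Tnfrsf18. Over all tested intervals edgeR's quasi-likelihood test called 1.14% in either direction, 0.460% higher and 0.681% lower (Benjamini-Hochberg adjusted p under 0.05). DESeq2 and limma voom called 0 of the 70 at an adjusted p under 0.05, and 0.0951% and 0.504% of all intervals. At an unadjusted p under 0.05 these 2 tools gave 7 and 14 of the 70, and their share over all intervals at that p was not counted. At an unadjusted edgeR p under 0.05 there were 13 (18.6%; 12.7% of all intervals), 8 of them higher and 5 lower. At 13 (18.6%) every library of one genotype lay above every library of the other, 8 higher and 5 lower in N440K. This held for 17.3% of all intervals, 8.34% higher and 8.95% lower. The median log2 fold change was 0.06 with quartiles of -0.22 and 0.24, and over all intervals it was 0.00 with quartiles of -0.23 and 0.22. Scaling to reads in these same intervals places the median over all intervals near 0, so it does not show that total binding was unchanged. Positive values made up 58.6% of the members and 50.5% of all intervals. Members carried 0.101 ± 0.00395% of wild type and 0.104 ± 0.00961% of N440K reads (SD, n = 3), with p = 0.7 in a two-sided exact permutation test, for which 0.1 is the smallest p possible.

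**Figure D2:**
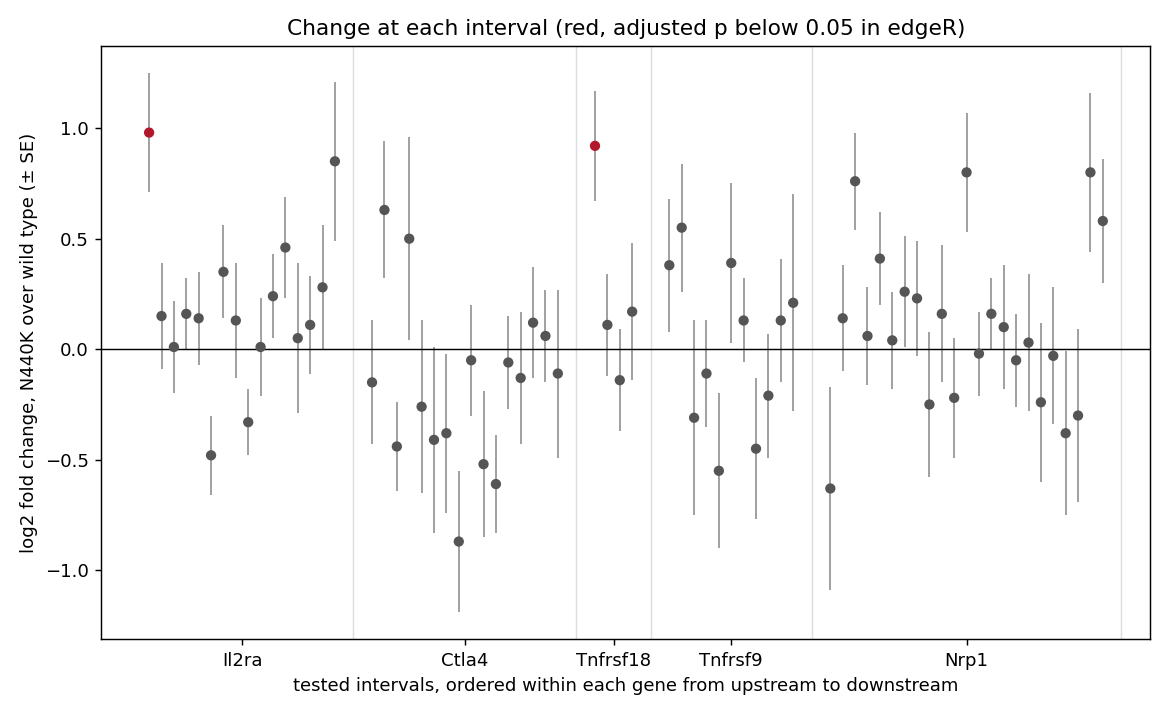
Log2 fold change of N440K over wild type with its SE (y axis) for the 70 tested intervals, ordered along each gene (x axis). Red points passed edgeR's test at an adjusted p under 0.05. The 68 others lie between -0.87 and 0.85, and the values of each gene spread to both sides of 0.

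Il2ra, on chromosome 2 from 11642792 to 11693194, encodes the chain that gives the interleukin-2 receptor its high affinity. The called interval lay 19.5 kb upstream of it, at 11623206 to 11623406. Its level was 7.44, 8.65 and 8.59 CPM in wild type against 14.4, 17.7 and 17.2 CPM in N440K libraries. Every N440K library thus lay above every wild type library. The change was 1.97-fold (95% interval 1.36 to 2.85), or 0.98 ± 0.27 on the log2 scale (SE), with an edgeR adjusted p of 0.0480. The site is nearly as close to Rbm17, a splicing factor gene whose body lies 20.1 kb away on the other side. The call was lost when any 1 of the 6 libraries was left out (edgeR adjusted p 0.0898 to 0.168), with total counts as library size (0.0538), among intervals at or above the median CPM (0.0598), with limma voom (0.0805) and with DESeq2 (0.600).

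The other Il2ra intervals lay in a group 7.46 to 5.49 kb upstream, at the promoter, and through the gene from 10.33 to 44.88 kb. The strongest, 10.73 kb inside the gene, stood at the 96.4th percentile of all tested intervals. Its values were 49.0, 40.8 and 56.7 CPM in wild type against 42.1, 31.7 and 41.6 CPM in N440K libraries, which overlapped (log2 fold change -0.33 ± 0.15 SE; edgeR adjusted p = 0.341). At the promoter, the interval whose sequence is shown above had 19.8, 16.5 and 19.3 CPM in wild type against 20.5, 25.0 and 25.0 CPM in N440K. The N440K libraries were all higher there, by a small margin (log2 fold change 0.35 ± 0.21 SE; edgeR adjusted p = 0.499).

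An interval 5.49 kb upstream of Il2ra differed in the other direction, and it is named after its values were seen. It had 36.6, 32.5 and 40.4 CPM in wild type against 26.6, 20.7 and 30.2 CPM in N440K libraries, without overlap. The difference did not pass (log2 fold change -0.48 ± 0.18 SE; edgeR adjusted p = 0.187). It was one of 2 Il2ra intervals with a negative value, while 14 were positive, with a median of 0.15. Over all intervals 50.5% were positive. Summed over all 16 intervals, Il2ra signal gave a log2 fold change of 0.08 ± 0.09 (± SE; 95% interval -0.09 to 0.26; edgeR adjusted p = 0.688).

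**Figure D3:**
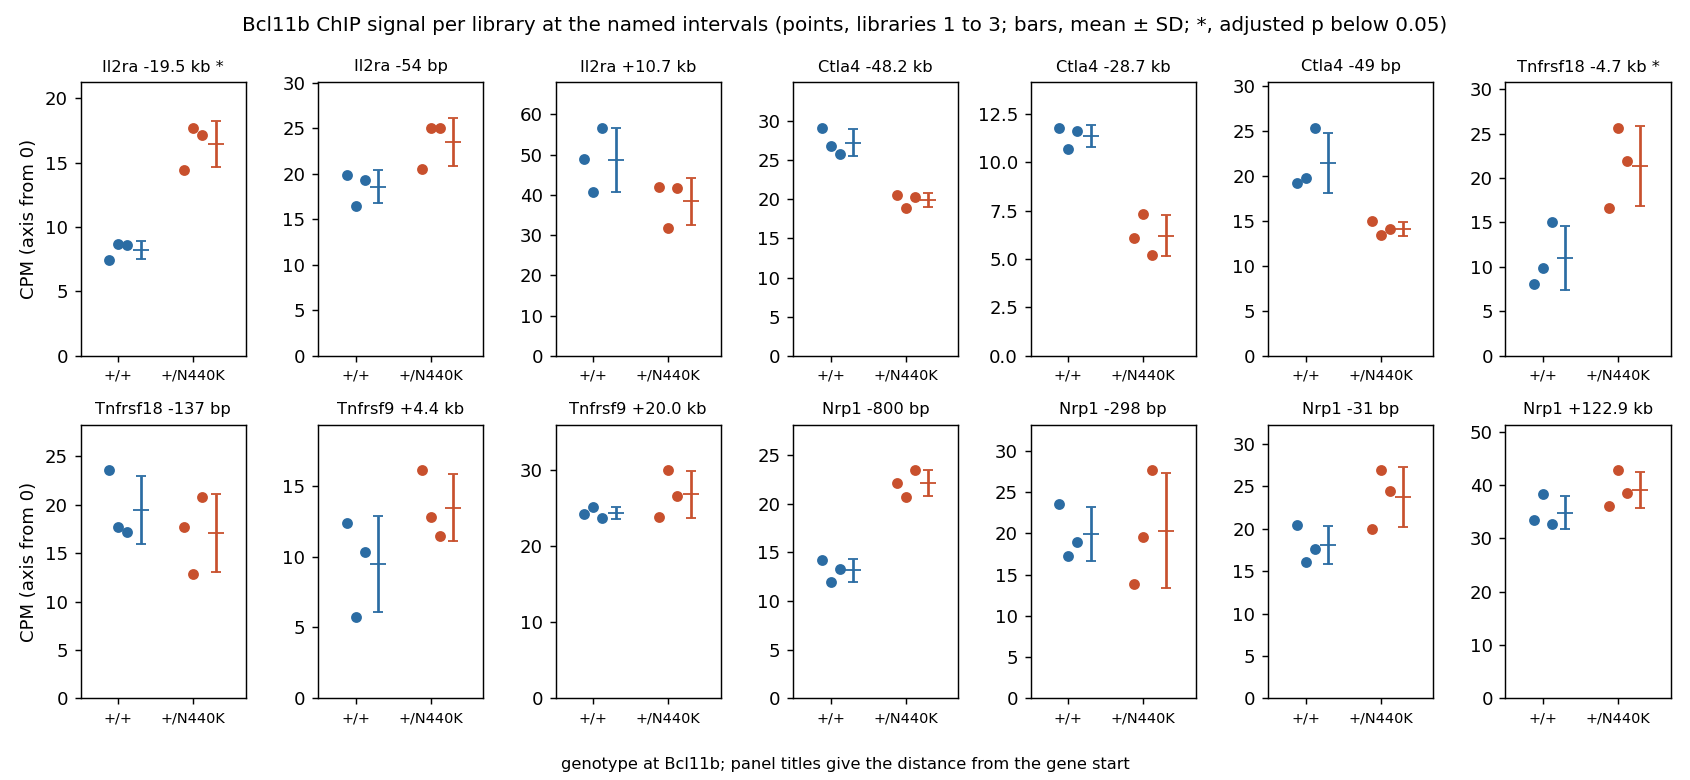
Bcl11b ChIP signal in CPM (y axis, from 0, scaled per panel) in each library of the 2 genotypes (x axis) at the 14 intervals named by rule. Points are libraries, bars the mean ± SD, and asterisks mark an adjusted p under 0.05 in edgeR. The 2 called intervals, the Il2ra promoter interval and the Nrp1 interval 800 bp upstream are higher in every N440K library, and 3 Ctla4 intervals are lower in every N440K library.

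Ctla4 lies on chromosome 1 from 60909025 to 60915832, between its relatives Cd28 and Icos, and its product removes the ligands of CD28 from antigen-presenting cells. None of its 16 tested intervals was called by edgeR, and 4 had an unadjusted p under 0.05, which 12.7% of all intervals reached. Of the 16, 12 had a negative log2 fold change (median -0.14, range -0.87 to 0.63), where 50.5% of all intervals had a positive one. Every N440K library was lower at 3 and higher at 1, against 8.95% and 8.34% of all intervals. At the promoter interval shown above the levels were 19.2, 19.8 and 25.3 CPM in wild type against 15.0, 13.4 and 14.1 CPM in N440K. All N440K libraries were lower, and the difference did not pass (0.657 of the wild type level, 95% interval 0.481 to 0.896; edgeR adjusted p = 0.195). The interval with the smallest p lay 28.72 kb upstream, with 11.8, 10.7 and 11.6 CPM in wild type against 6.09, 7.32 and 5.21 CPM in N440K. These ranges were also apart (log2 fold change -0.87 ± 0.32 SE; edgeR adjusted p = 0.190). The strongest Ctla4 interval, 48.25 kb upstream, had 29.1, 26.8 and 25.8 CPM in wild type against 20.5, 18.9 and 20.3 CPM in N440K (edgeR adjusted p = 0.317). DESeq2 gave an adjusted p of 0.965 to 1 at these 3 intervals. One interval went the other way without overlap, 55.55 kb upstream and named after its values were seen, at 7.17 ± 0.316 against 11.1 ± 1.69 CPM (SD, n = 3; edgeR adjusted p = 0.381).

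Summed over the locus, Ctla4 had 216.7, 171.0 and 199.3 CPM in wild type against 168.3, 149.7 and 186.9 CPM in N440K libraries. The genotypes overlapped. The log2 fold change of the sum was -0.20 ± 0.09 (SE; 95% interval -0.39 to -0.02; edgeR unadjusted p = 0.0352, adjusted p = 0.228), and with intervals inside the gene body alone it was -0.02.

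The TNF receptor genes Tnfrsf18 and Tnfrsf4 are neighbours on chromosome 4. The second called interval lay between them, at 156021506 to 156021706, 4.72 kb upstream of the Tnfrsf18 start and 5.0 kb past the end of Tnfrsf4. It had 8.06, 9.88 and 15.0 CPM in wild type against 16.6, 25.6 and 21.9 CPM in N440K libraries. The lowest N440K library stood just above the highest wild type library, replicate 3. The change was 1.89-fold (95% interval 1.34 to 2.65), or 0.92 ± 0.25 on the log2 scale (SE), with an edgeR adjusted p of 0.0422. Without wild type replicate 3 the adjusted p was 0.0197 and without N440K replicate 1 it was 0.0435. The call was lost without wild type replicate 1 (0.178) or 2 (0.168), without N440K replicate 2 (0.179) or 3 (0.133), among intervals at or above the median CPM (0.0621), with limma voom (0.0677) and with DESeq2 (0.552).

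The 3 other Tnfrsf18 intervals did not pass, with log2 fold changes from -0.14 to 0.17. An interval 3.94 kb upstream, next to the called one and named for its position after its values were seen, had 15.5, 12.4 and 19.7 CPM in wild type against 17.7, 17.7 and 16.1 CPM in N440K libraries, which overlapped. At the promoter the values were 23.5, 17.7 and 17.2 CPM in wild type against 17.7, 12.8 and 20.8 CPM in N440K (log2 fold change -0.14 ± 0.23 SE; edgeR adjusted p = 0.854). The locus sum was 51.3 ± 4.23 CPM in wild type against 61.2 ± 3.33 CPM in N440K libraries (SD, n = 3), without overlap (edgeR adjusted p = 0.281), and contains the called interval. The share of all loci without overlap was not counted.

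Tnfrsf9, on chromosome 4 from 150920155 to 150946104, encodes a receptor that T cells raise after activation. Its 11 tested intervals lay inside the gene (7) or downstream (4). EdgeR called none and gave 0 at an unadjusted p under 0.05. The strongest, 19.99 kb inside, had 24.2, 25.1 and 23.6 CPM in wild type against 23.8, 29.9 and 26.6 CPM in N440K libraries, which overlapped (edgeR adjusted p = 0.835). The one with the smallest p, 4.39 kb inside, had 12.4, 5.76 and 10.3 CPM in wild type against 16.1, 12.8 and 11.5 CPM in N440K (edgeR adjusted p = 0.429). Here wild type replicate 1 stood above 1 N440K library. The locus sum differed by a log2 fold change of 0.04 ± 0.10 (± SE; 95% interval -0.15 to 0.24; edgeR adjusted p = 0.868).

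Nrp1, on chromosome 8 from 128358591 to 128505476, encodes a co-receptor for semaphorins and VEGF that marks regulatory T cells made in the thymus. The next gene, Itgb1, lay at least 90.5 kb from any of its intervals, and its 23 tested intervals reached from 91.58 kb before to 236.57 kb past its start. The interval at 236.57 kb was nearly as close to Itgb1 (90.5 kb) as to Nrp1 (89.7 kb). So was the one at 235.78 kb (91.3 and 88.9 kb), and both had an unadjusted edgeR p under 0.05. Of the 23, 3 lay within 1 kb before the start. The one 800 bp upstream (128357691 to 128357891) had 14.3, 11.9 and 13.3 CPM in wild type against 22.2, 20.7 and 23.4 CPM in N440K libraries, without overlap. This was 1.69-fold (95% interval 1.24 to 2.31) and did not pass, with an edgeR adjusted p of 0.0761. Over the alternatives tried, its adjusted p ran from 0.0645 to 0.731.

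The next Nrp1 interval, 298 bp upstream, had 23.5, 17.3 and 18.9 CPM in wild type against 13.8, 19.5 and 27.6 CPM in N440K. Its N440K libraries spread to both sides of the wild type ones (edgeR adjusted p = 0.945). The interval 31 bp upstream had 20.5, 16.1 and 17.6 CPM in wild type against 19.9, 26.9 and 24.5 CPM in N440K, with a slight overlap (log2 fold change 0.41 ± 0.21 SE; edgeR adjusted p = 0.406). The strongest Nrp1 interval lay deep in the gene, at 122.93 kb, with 33.5, 38.3 and 32.6 CPM in wild type against 36.0, 42.7 and 38.5 CPM in N440K libraries, which overlapped (edgeR adjusted p = 0.746). EdgeR, DESeq2 and limma voom called 0 of the 23, with 4 at an unadjusted edgeR p under 0.05, which 12.7% of all intervals reached. The sum over all 42 intervals gave a log2 fold change of 0.14 ± 0.07 (± SE; 95% interval -0.01 to 0.28; edgeR adjusted p = 0.321).

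**Figure D4:**
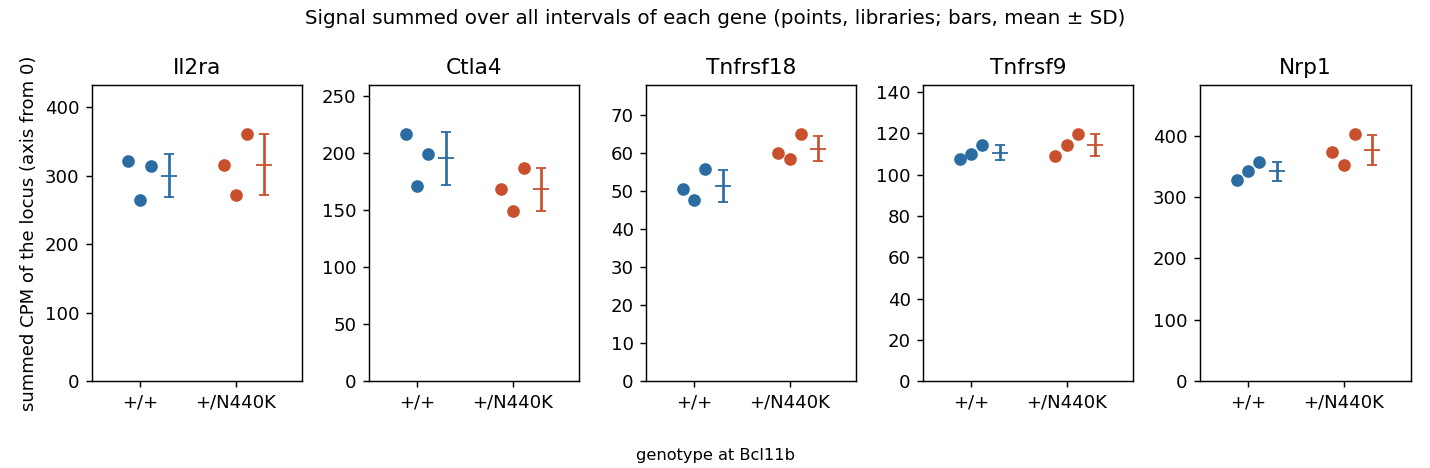
Bcl11b ChIP signal summed over all intervals assigned to each gene, in CPM of reads assigned to genes (y axis, from 0), in each library of the 2 genotypes (x axis). Points are libraries and bars the mean ± SD. The genotypes overlap at Il2ra, Ctla4, Tnfrsf9 and Nrp1, and the Tnfrsf18 sums do not (edgeR adjusted p = 0.281). How often the sums of all loci do not overlap was not counted.

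Of the 5 loci with sums that could be tested, edgeR, DESeq2 and limma voom called 0 at an adjusted p under 0.05. Over 14356 loci these tools called 4.81% (1.58% higher and 3.23% lower), 1.80% and 4.51% at that threshold. At an unadjusted p under 0.05 there were 1, 0 and 2 of the 5, and the share of all loci at that p was not counted.

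Other genes of regulatory T cell biology were called about as often as all intervals. Of 71 genes in 5 lists, 65 had a tested interval. EdgeR called 7 of their 689 intervals (1.02%, against 1.14% of all tested intervals), 6 higher and 1 lower, where 0.460% of all intervals were called higher and 0.681% lower. Their median log2 fold change was 0.03, against 0.00 over all intervals. Limma voom called 4 of the 689 and DESeq2 called 1, with 0.504% and 0.0951% called over all intervals. With 0 to 3 calls in a list, the lists' counts are given as a description beside that 1.14%. Among intervals of co-stimulation and TNF receptor signalling genes, 1 of 117 was called, at 1.0 kb from Tnfrsf1b, which encodes TNF receptor 2 and supports regulatory T cell expansion. It had 33.5, 36.6 and 38.6 CPM in wild type against 70.3, 57.4 and 65.1 CPM in N440K libraries, well apart. It rose 1.76-fold and was called by each tool, with an adjusted p of 0.000282 in edgeR, 0.0203 in DESeq2 and 0.000931 in limma voom.

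Interleukin-2 receptor signalling genes had 2 called of 104 intervals, both higher and both in Socs3, the gene of an inhibitor of cytokine receptor signals. They lie 15 bp apart, so fragments can span both and they are not independent. Their folds were 1.88 and 1.72 (edgeR adjusted p = 0.0166 and 0.0409). Partners and regulators of Foxp3 had 3 called of 327. A pair in and near Smad3, which carries TGF-beta signals to Foxp3, was 1.60-fold and 1.55-fold higher (edgeR adjusted p = 0.0173 and 0.0385). An interval 61.1 kb from Gata3 was lower, from 6.77 ± 1.40 to 1.33 ± 0.438 CPM (SD, n = 3; edgeR adjusted p = 0.0165). Surface and effector genes had 1 called of 123, 5.3 kb from Gpr83, an orphan receptor gene of regulatory T cells, which rose from 4.91 ± 2.65 to 15.3 ± 3.26 CPM (SD, n = 3; edgeR adjusted p = 0.00357). Neuropilin and semaphorin genes had 0 of 43 called by edgeR, DESeq2 and limma voom, with 9 of the 43 at an unadjusted edgeR p under 0.05, which 12.7% of all intervals reached. Among the 7, DESeq2 called the Tnfrsf1b interval alone, and limma voom also called 1 Socs3, 1 Smad3 and the Gpr83 interval. With 1 library left out, the Tnfrsf1b and Gpr83 calls were kept in 6 of 6 edgeR fits, with adjusted p-values up to 0.0137 and 0.0408. The Gata3 interval and each Smad3 interval kept the call in 2 of 6 fits, and all 3 lost it without wild type replicate 1 or N440K replicate 1. The Gata3 interval also lost it without replicate 3 of either genotype, the stronger Smad3 call without wild type replicate 2 or N440K replicate 3, and the other without wild type replicate 3 or N440K replicate 2. Of the Socs3 pair, 1 kept it in 3 of 6, lost without wild type replicate 3 or N440K replicate 1 or 2, and the other in 0 of 6.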

How the data were processed

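The authors deposited counts, whole numbers of reads in 93708 intervals for 6 ChIP libraries, and CPM values for 63098 of them. Each deposited CPM value is the count divided by 1 constant per library: 100% came back as whole reads (tolerance 0.01), and these equalled the counts. Per the submitters' processing notes, which give no order, the authors used the build mm10, Bowtie2 2.3.5, fastp 0.20.0, MACS2, SAMtools 1.9, edgeR 3.38.2 and bedtools. The sources used here do not say how peaks were called or from which libraries. Library pairs differed by more than sampling noise (chi-square per degree of freedom 1.24 or more).

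Counts were filtered with filterByExpr, scaled by TMM and tested with edgeR 4.0.16 (quasi-likelihood, genotype only, two-sided, Benjamini-Hochberg over all intervals), after tests on simulated data. SE is the log2 fold change over the square root of F. Intervals were assigned to 21896 protein-coding RefSeq genes on GRCm38.p6. Exons and introns were not told apart. Locus sums used all 93708 intervals and the same test. Named intervals were, per gene, the strongest, the one with the smallest p, those called and those within 1 kb of the start, and for other lists those called. Members and lists were chosen with earlier results of these data known. Alternatives used DESeq2 1.42.0, limma 3.58.1, other scalings, filters and assignments, a replicate block, and leaving out each library in turn.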

Additional observations from a re-analysis of the deposited data

How the results depend on the processing

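The 2 calls among the 70 intervals remained 2 without a filter on low counts, with loess offsets, with the replicate block (with and without loess offsets), within 20 kb and, chosen after seeing the data, with counts recovered from the CPM table. There was 1 with total counts as library size, and 0 with DESeq2, with limma voom, for intervals at or above the median CPM and inside gene bodies alone, where neither called interval lies. Leaving out 1 library gave 0 to 1. Their median log2 fold change was 0.017 to 0.094 without 1 library and above 0 in each other setting. Over all intervals, 720 calls became 60 with DESeq2, 318 with limma voom, 328 at or above the median CPM and 289 to 502 without 1 library. The 690 calls among all loci became 259 with DESeq2, 409 to 595 without 1 library and, in a setting added later, 457 with intervals of the CPM table alone. The 7 calls in the wider lists became 1 with DESeq2, 4 with limma voom and 3 to 7 without 1 library (settings added later). The cause was not tested. With the replicate block, 753 intervals and 901 loci were called, with 2 and 0 among the members, and no named call changed. Libraries with the same number deviated from their group means with correlations of -0.004, 0.028 and 0.058, and those with different numbers with -0.047 to 0.017. Counting noise also keeps such values near 0, so they cannot exclude pairing. The labels do not say that the numbers pair the libraries, which were treated as unpaired. The sign of the Il2ra sum and of the Nrp1 interval 298 bp upstream turned without wild type replicate 2 or N440K replicate 3, and that of the Tnfrsf18 promoter interval without N440K replicate 2, never past the threshold. At this depth the SE of a log2 fold change ran from 0.15 to 0.49. Estimates well above their SE also went uncalled, such as -0.87 ± 0.32 at Ctla4 (28.72 kb upstream). Another, named after its values were seen, was 0.85 ± 0.36 at Il2ra (44.88 kb inside). There the libraries overlapped, at 7.44, 5.35 and 4.29 CPM in wild type against 7.20, 6.10 and 16.1 CPM in N440K. Only N440K replicate 3 stood above the wild type range. These estimates do not themselves show a missed difference. Differences larger than the SE can have been missed, most of all at weak intervals.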
